A study of Mus musculus with 4 samples.

Results

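The unfolded protein response and the folding machinery of the endoplasmic reticulum (ER) were described through 10 genes, each found on 1 row by its gene symbol among the 34745 genes of the deposited table. They were the sensors Ern1, Eif2ak3 and Atf6, the transcription factor gene Xbp1, the disulfide isomerase genes Pdia3, Pdia4 and Pdia6, the lectin chaperone genes Calr and Canx, and Herpud1 of ER-associated degradation (ERAD). RNA came from splenic CD4+ T cells of mice of the C57BL/6 strain, wild type throughout, and 4 groups were sequenced as 1 library each. Cells of the Th17 and Treg groups had spent 3 days in differentiation cultures, and the sources used here do not name the cytokines added. Cells of the Th0 group had received antibodies to CD3 and CD28 for 3 days. The naive library was made from CD4+ cells of the spleen without culture. No group carried a genetic change, and the labels do not say how many mice gave each library.

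When unfolded proteins build up in the ER, the sensor proteins in its membrane start the unfolded protein response. IRE1, the product of Ern1, cuts the Xbp1 transcript so that it encodes an active transcription factor, PERK, the product of Eif2ak3, phosphorylates eIF2alpha and slows translation, and ATF6 is cleaved in the Golgi to release a transcription factor. XBP1 and ATF6 raise the genes of chaperones, disulfide isomerases and ERAD, and the IRE1 and XBP1 branch is best known among lymphocytes for its role in antibody-secreting plasma cells.

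The sequences on which this pathway acts are shown first. IRE1 removes a stretch of 26 bases from exon 4 of Xbp1 (GRCm38, chr11:5524279-5524304, plus strand, coding sequence in the unspliced transcript). It is printed in capitals with 7 bases before it and 8 after it, as read from the GENCODE vM21 transcript.
Xbp1: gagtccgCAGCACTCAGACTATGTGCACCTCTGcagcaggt
The open reading frame is 267 residues long with the stretch in place and 371 residues without it. A search of the transcript for paired sites of this shape found 2 pairs, and the other, in exon 1, shortened the frame to 73 residues. The deposited values are counts per gene and do not separate the cut from the uncut transcript.

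RefSeq promoters (GRCm38.p6, 250 bases before to 50 after each start) were matched for 9 of the 10 genes, not for Atf6. They were searched on both strands for the ER stress response element (ERSE: CCAAT, 9 bases, CCACG), for ERSE-II (ATTGG, 1 base, CCACG) and for the unfolded protein response element TGACGTGG. The windows with a match are printed because they are the stretches of these promoters that carry the known ER stress motifs. The capitals mark the fixed letters of the motif, and each sequence runs along the strand of its gene. The matches in Calr (chr8:84847045-84847123, minus strand), Canx (chr11:50325770-50325848, minus strand) and Pdia6 (chr12:17266461-17266539, plus strand) were to ERSE, that of Calr on the opposite strand. The match in Herpud1 (chr8:94386347-94386417, plus strand) was to ERSE-II.
Calr: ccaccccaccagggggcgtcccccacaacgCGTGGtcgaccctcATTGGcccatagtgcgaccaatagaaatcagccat
Canx: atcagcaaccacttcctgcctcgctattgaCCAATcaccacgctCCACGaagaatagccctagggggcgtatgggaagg
Pdia6: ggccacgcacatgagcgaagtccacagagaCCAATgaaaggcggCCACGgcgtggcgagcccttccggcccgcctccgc
Herpud1: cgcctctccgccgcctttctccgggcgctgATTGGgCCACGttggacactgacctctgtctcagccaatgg
Of all 32851 promoters in the table, 0.119% held ERSE, 0.0365% held ERSE-II and 0.676% held the unfolded protein response element, which matched none of the 9. A match describes the letters of the window and was not tested for binding. None of the 4 genes with a match met the 2-fold rule described below in any comparison. Of all tested genes, between 1.24% and 27.2% were called in a given direction, depending on the comparison. With 4 genes, a lack of calls cannot be set apart from those shares.

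Total counts were 12414372 in Th17, 10256627 in Treg, 10272122 in Th0 and 11901949 in naive. Levels are read counts scaled to library size (CPM) after TMM scaling, which adjusts each library size by 1 factor and takes most genes as unchanged. FPKM, which also divides by gene length, is used to compare genes. With 1 library per group there was no test between conditions. Brackets after a CPM level or a fold hold the 95% interval of counting error only, and p-values, SDs and replicate checks do not exist for any value. The call of higher or lower needed a log2 ratio of CPM + 1 of at least 2-fold and an exact interval of the count ratio without equality. Comparisons that use the same Th0 or naive library are not independent of each other. In bulk RNA, a change in the number of expressing cells and a change in RNA per cell cannot be told apart.

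The T cell genes Cd3e and Cd4 were found in all 4 libraries. Il17a, the Th17 cytokine, had 90.4 CPM in Th17, 14.7 in Treg, 0 in Th0 and 0.245 in naive. A count of 0 does not show absence, and 3 counts in Th0 would be worth 0.343 CPM. Foxp3, which defines regulatory T cells, had 51.5 CPM in Treg and 11.3 in Th17, against 1.37 in Th0 and 129 in naive, so its level in the naive library goes against that library's label. The naive library also held all markers of the lists for other cell types. The 10 macrophage and monocyte markers summed to 34.4 CPM in Th17, 49.4 in Treg, 31.9 in Th0 and 4552 in naive, and the 10 B cell markers to 87.1, 23.4, 99.8 and 935 CPM in the same order. The 7 plasma cell markers summed to 169, 103, 368 and 2449 CPM, of which Jchain, the joining chain of secreted antibodies, had 0, 0.180, 1.49 and 89.9 CPM. Most of each plasma cell sum was the single gene Ighm, at 141, 83.6, 325 and 2132 CPM. These sums move with every comparison to naive below, and the part of the other cell types in those results was not tested.

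Summed over the 10 genes, the level was 517 FPKM in Th17, 505 in Treg, 344 in Th0 and 500.1 in naive. As TMM-scaled CPM the sums lay closer together, at 2318 in Th17, 2191 in Treg, 1992 in Th0 and 2170 in naive. The Th0 library was lowest on both scales, and the gap is wider in FPKM. FPKM uses the library total while TMM scaled Th0 by a factor of 0.850. It also divides by gene length, so the genes do not weigh the same in both sums. The order of the genes spanned more than 15-fold in each library. Calr and Pdia3 stood highest, between 85.3 and 157 FPKM, while the sensors Ern1, Eif2ak3 and Atf6 lay between 2.26 and 16.4 FPKM.

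**Figure D1:**
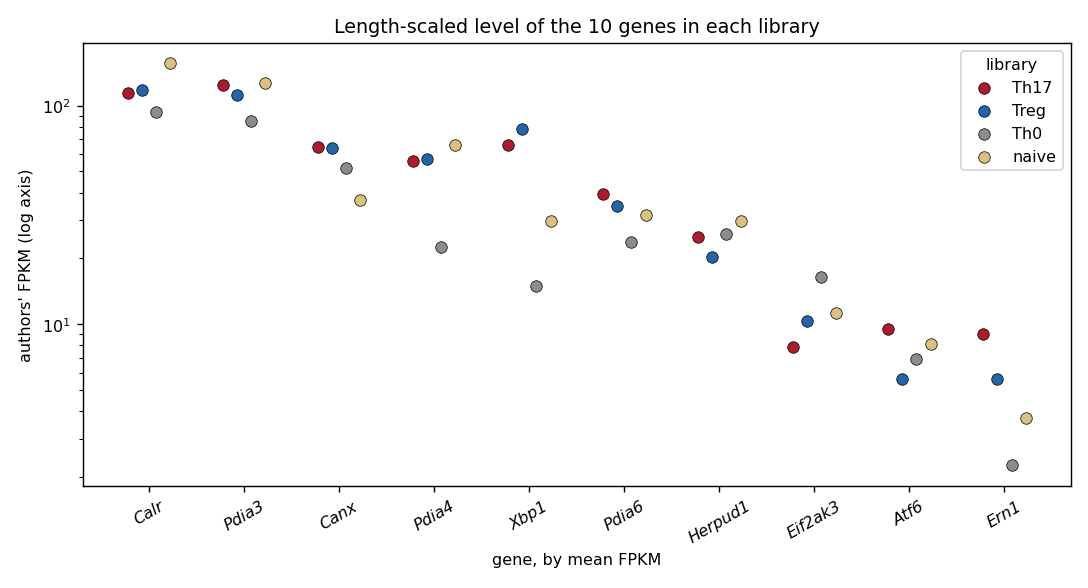
Authors' FPKM (log axis) of the 10 genes in the Th17, Treg, Th0 and naive libraries, 1 point per library, with genes ordered by mean FPKM. Calr and Pdia3 are highest, the 3 sensor genes have the lowest means, and Xbp1 and Ern1 spread farthest between libraries.

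Among the sensors, Ern1 was higher and Eif2ak3 lower in Th17 than in Th0, and Atf6 stayed within 2-fold in all 6 comparisons. Ern1 (chromosome 11, 106394650 to 106487852, GRCm38) had 90.6 CPM (85.5 to 95.9) in Th17, 55.5 (51.2 to 60.0) in Treg, 28.3 (24.9 to 32.0) in Th0 and 38.7 (35.3 to 42.4) in naive. Its level was therefore highest in Th17, then Treg, then naive, with Th0 lowest, and no neighbouring pair in that order overlapped within counting error. It was 3.20-fold higher in Th17 than in Th0 (2.79 to 3.69) and 2.34-fold higher in Th17 than in naive (2.10 to 2.61), and both were called. The ratio of Treg over Th0 was 1.96-fold (1.69 to 2.28), just under the threshold, and it was called under 2 of 4 scalings. Between Th17 and Treg the ratio was 1.63-fold (1.48 to 1.80), which no scaling called.

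Eif2ak3 (chromosome 6, 70844515 to 70905245) had 59.3 CPM (55.2 to 63.6) in Th17, 75.8 (70.8 to 81.1) in Treg, 153 (145 to 162) in Th0 and 86.8 (81.7 to 92.2) in naive. The Th0 library was highest and Th17 lowest, the reverse of Ern1. Th17 had a level 2.59-fold lower than Th0 (2.36 to 2.83), which was called under all 4 scalings. In the authors' FPKM it was 2.08-fold lower, but the rule adds 1 to each FPKM value. The log2 ratio was then -0.97, which was not called. Treg had a level 2.02-fold lower than Th0 (1.85 to 2.21), which was called under 2 of 4 scalings. The level in Th0 was 1.77-fold that in naive (1.63 to 1.92), below the threshold.

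Atf6 (chromosome 1, 170704674 to 170867771) had 84.2 CPM (79.3 to 89.3) in Th17, 48.6 (44.6 to 52.9) in Treg, 76.4 (70.7 to 82.4) in Th0 and 73.3 (68.6 to 78.3) in naive. Treg was the lowest of the 4 libraries, and the Th0 and naive levels did not differ beyond counting error. The ratio of Th17 over Treg was 1.73-fold (1.56 to 1.92), below the threshold. All the same it lay at percentile 96.5 of the ratios of all tested genes, because these libraries were close to each other, and the ratio of Ern1 in that comparison lay at percentile 95.5.

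A ratio of both genes inside 1 library does not depend on scaling between libraries. The FPKM ratio of Ern1 to Eif2ak3 was 1.14 (1.04 to 1.25) in Th17, 0.546 (0.491 to 0.607) in Treg, 0.138 (0.120 to 0.158) in Th0 and 0.333 (0.298 to 0.371) in naive. Ern1 slightly exceeded Eif2ak3 in Th17, while Eif2ak3 exceeded Ern1 in the other 3 libraries, most in Th0. The pairs of genes for these ratios were chosen after their values were seen.

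Xbp1, the transcription factor gene whose transcript IRE1 cuts at the stretch printed above, had the widest range of the 10 genes. Xbp1 (chromosome 11, 5520659 to 5525893) had 281 CPM (272 to 290.4) in Th17, 326 (315 to 336) in Treg, 79.0 (73.2 to 85.1) in Th0 and 130.0 (124 to 137) in naive. Both polarised cultures were high, and Th0 was below naive. It was 3.56-fold higher in Th17 than in Th0 (3.28 to 3.87) and 4.12-fold higher in Treg than in Th0 (3.80 to 4.48), both called under all 4 scalings. Against naive it was 2.16-fold higher in Th17 (2.04 to 2.30) and 2.50-fold higher in Treg (2.36 to 2.66), also under all 4. Th17 over Treg gave a ratio of 0.864 (0.825 to 0.904), and Th0 over naive gave 0.608 (0.555 to 0.665), neither past the threshold.

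Beside Atf6, the other transcription factor gene among the 10, Xbp1 gave an FPKM ratio of 6.92 (6.47 to 7.41) in Th17, 13.9 (12.7 to 15.2) in Treg, 2.14 (1.92 to 2.39) in Th0 and 3.67 (3.38 to 3.99) in naive. The ratio was highest in Treg, the library with the lowest Atf6 level. Over the 4 libraries the 3 genes whose levels followed Xbp1 most closely were Plscr3, Cndp2 and Fuz. Their Euclidean distances to it, between log2(CPM + 1) values centred over the libraries, were 0.091, 0.093 and 0.126, and 65 of 9063 genes lay within 0.5. Eif2ak3 lay farthest from Xbp1 of all pairs among the 10 genes, at a distance of 2.58.

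**Figure D2:**
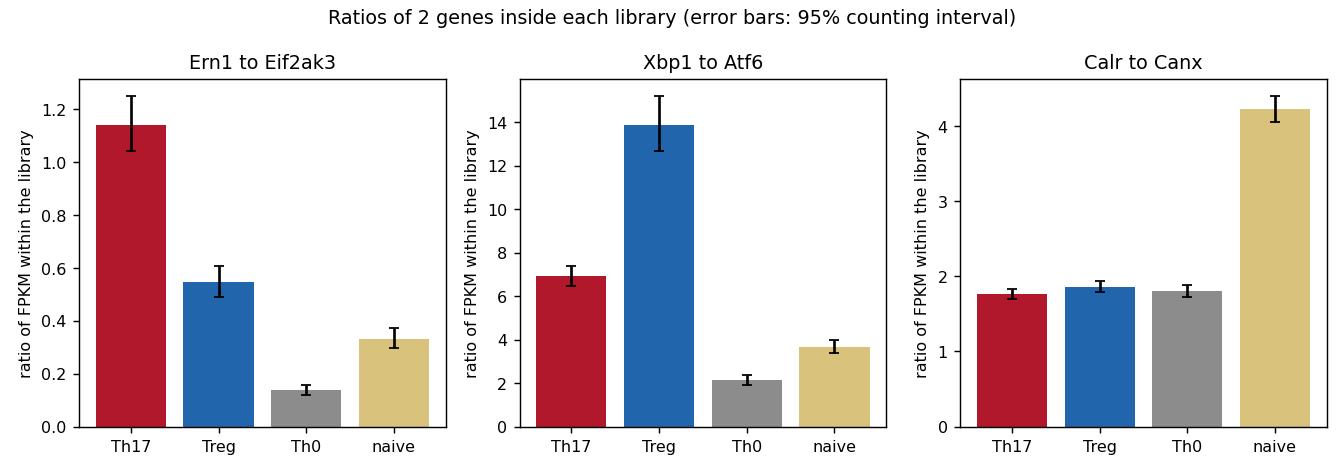
FPKM ratio of Ern1 to Eif2ak3, Xbp1 to Atf6 and Calr to Canx inside the Th17, Treg, Th0 and naive libraries, with bars from 0 and 95% counting intervals. Ern1 to Eif2ak3 is highest in Th17 at 1.14 and lowest in Th0 at 0.138, Xbp1 to Atf6 is highest in Treg at 13.9, and Calr to Canx is highest in naive at 4.23.

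The disulfide isomerases form and rearrange disulfide bonds in proteins that enter the ER, and of the 3 genes only Pdia4 met the 2-fold rule. Pdia4 (chromosome 6, 47796141 to 47813430) had 145 CPM (139 to 152) in Th17, 144 (137 to 151) in Treg, 72.6 (67.0 to 78.4) in Th0 and 175 (168 to 183) in naive. The Th0 library was low and naive was highest, with Th17 and Treg between them and not different beyond counting error. It was 2.42-fold lower in Th0 than in naive (2.21 to 2.65), which was called under all 4 scalings. The ratio of Th17 over Th0 was 2.0-fold (1.83 to 2.19) with a log2 ratio of 0.99 after adding 1 CPM, and that of Treg over Th0 was 1.99-fold (1.81 to 2.18). Both stood at the threshold, uncalled as reported and called under 2 of 4 scalings, and the Th17 ratio was also called when TMM factors came from all genes.

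For Pdia4 the 3 most similar genes over the 4 libraries were Krr1, Twistnb and Ptpn11, at distances of 0.032, 0.045 and 0.056, with 717 of the 9063 genes within 0.5. Such a profile, low in Th0 alone, was therefore common.

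Pdia3 (chromosome 2, 121413775 to 121438687), which encodes the isomerase that works with calnexin and calreticulin on glycoproteins, had 464 CPM in Th17, 407 in Treg, 396 in Th0 and 485 in naive. The highest and lowest libraries differed by 1.22-fold, and Treg and Th0 did not differ beyond counting error. Pdia6 (chromosome 12, 17266545 to 17284770), an isomerase known in mammalian cells to act on IRE1, had 167 CPM in Th17, 144 in Treg, 126 in Th0 and 137 in naive. It was highest in Th17 and lowest in Th0, by 1.33-fold, and Treg and naive did not differ beyond counting error. Pdia3 overlaps Catsper2 on the opposite strand, but Catsper2 had between 18 and 56 counts where Pdia3 had between 3463 and 6090.

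Calreticulin and calnexin hold newly made glycoproteins in the ER until they are folded, Calr in the lumen and Canx in the membrane, and neither gene was called. Calr (chromosome 8, 84841850 to 84846934) had 460.4 CPM (449 to 472) in Th17, 465 (453 to 478) in Treg, 469 (454 to 483) in Th0 and 649 (635 to 663) in naive. The cultured libraries did not differ beyond counting error, and naive stood above them, with Th17 over naive at 0.710-fold (0.686 to 0.734). Canx (chromosome 11, 50293961 to 50325673) had 464 CPM (453 to 476) in Th17, 445 (433 to 458) in Treg, 461 (447 to 476) in Th0 and 273 (264 to 282) in naive. The cultured libraries lay within 1.04-fold of each other, but here naive stood below them, with Th17 over naive at 1.70-fold (1.63 to 1.78). The sign of each ratio of Th17 or Treg over Th0 for both genes depended on the scaling.

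The ratio of these chaperone genes inside each library set naive apart from the cultures. Calr to Canx in FPKM was 1.76 (1.70 to 1.83) in Th17, 1.86 (1.79 to 1.93) in Treg, 1.81 (1.73 to 1.89) in Th0 and 4.23 (4.06 to 4.40) in naive. The share of this that belongs to T cells was not tested, given the macrophage and B cell markers in the naive library. Pdia4 to Canx was 0.860 (0.817 to 0.906) in Th17, 0.891 (0.842 to 0.943) in Treg, 0.433 (0.397 to 0.471) in Th0 and 1.77 (1.67 to 1.87) in naive. In that ratio Th0 lay below both polarised cultures and naive above them.

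Herpud1 (chromosome 8, 94386438 to 94395377), which encodes a membrane protein of the ERAD ubiquitin ligase complex, had 102 CPM (96.2 to 107) in Th17, 79.9 (74.7 to 85.3) in Treg, 131 (123 to 138) in Th0 and 123 (117 to 129) in naive. It was lowest in Treg, and Th0 and naive did not differ beyond counting error. The ratio of Treg over Th0 was 0.612-fold (0.560 to 0.668) and that of Th17 over Th0 was 0.778-fold (0.718 to 0.842), neither past the threshold. The nearest genes over the 4 libraries were Xpo6, Prpf38b and Narf, at distances of 0.034, 0.055 and 0.058, and 1203 of the 9063 genes lay within 0.5.

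**Figure D3:**
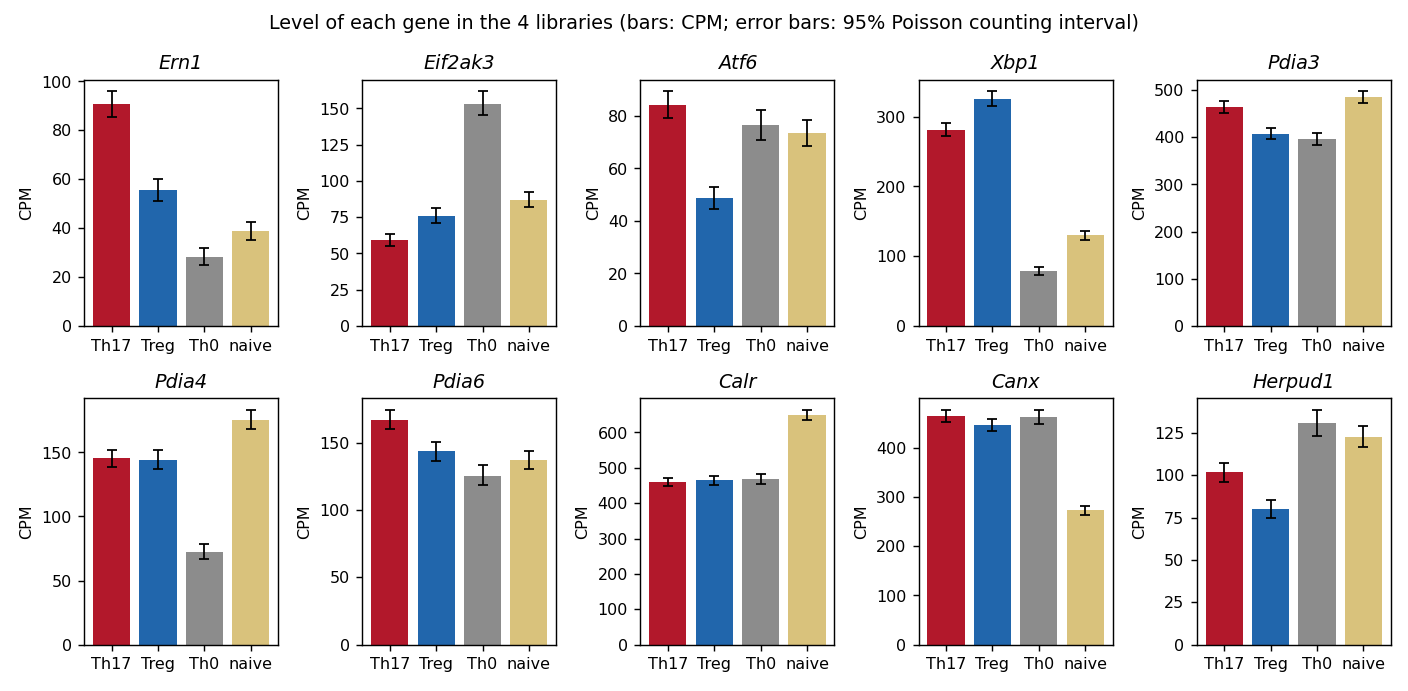
CPM after TMM scaling of each of the 10 genes in the Th17, Treg, Th0 and naive libraries, with bars from 0 and 95% Poisson counting intervals. Xbp1 and Ern1 are high in Th17 and Treg, Eif2ak3 is high in Th0, Pdia4 is low in Th0, and naive stands above the cultures for Calr and below them for Canx.

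The calls of the 10 genes were set beside those of all tested genes in each comparison. In Th17 over Th0, 2 of the 10 were higher (Xbp1 and Ern1) and 1 was lower (Eif2ak3), where 20.1% of 13324 tested genes were higher and 12.4% were lower. In Treg over Th0, 1 was higher (Xbp1) and 1 lower (Eif2ak3), against 20.2% and 12.0% of 13138 genes. In Th17 over Treg, 0 of the 10 were called, where 1.91% of 13346 genes were higher and 1.24% lower. In these 3 comparisons between cultures the counts stand near the share of all genes.

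Scaling by library totals changes these shares. Of all calls in Th17 over Th0, 61.9% were in the higher direction with TMM and 79.3% with library totals. For Treg over Th0 the shares were 62.7% and 81.8%. Of the 10 genes, library totals gave 3 higher and 1 lower in Th17 over Th0, and 3 higher and 0 lower in Treg over Th0, with Pdia4 added in both and Ern1 in Treg. The shares of all tested genes called, here and in the lists below, are from TMM. Counts under library totals have no such share beside them. With library totals the all-gene median of the log2 ratio moved by 0.28 in Th17 over Th0 and by 0.31 in Treg over Th0, so that small changes near 0 in these comparisons have no settled sign.

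Against naive, 0 of the 10 genes were higher and 1 was lower (Pdia4) in Th0, where 18.5% of 13995 tested genes were higher and 27.2% lower. Of those calls 40.5% were in the higher direction with TMM and 29.6% with library totals, which moved the median of all genes by -0.24. In Th17 over naive, 2 were higher (Ern1 and Xbp1) and 0 lower, against 15.5% and 17.7% of 14523 genes. In Treg over naive, 1 was higher (Xbp1) and 0 lower, against 14.9% and 16.9% of 14350 genes. In either direction, 1 of the 10 was called in Th0 over naive where 6397 of the 13995 genes were, 2 in Th17 over naive where 4809 of the 14523 were, and 1 in Treg over naive where 4557 of the 14350 were.

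The median log2 ratio of the 10 genes was 0.18 in Th17 over Th0, 0.01 in Treg over Th0 and 0.12 in Th17 over Treg, beside 0.09, 0.08 and -0.00 for all tested genes. Against naive it was 0.07 in Th17, -0.22 in Treg and -0.21 in Th0, beside -0.01, -0.02 and -0.13.

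**Figure D4:**
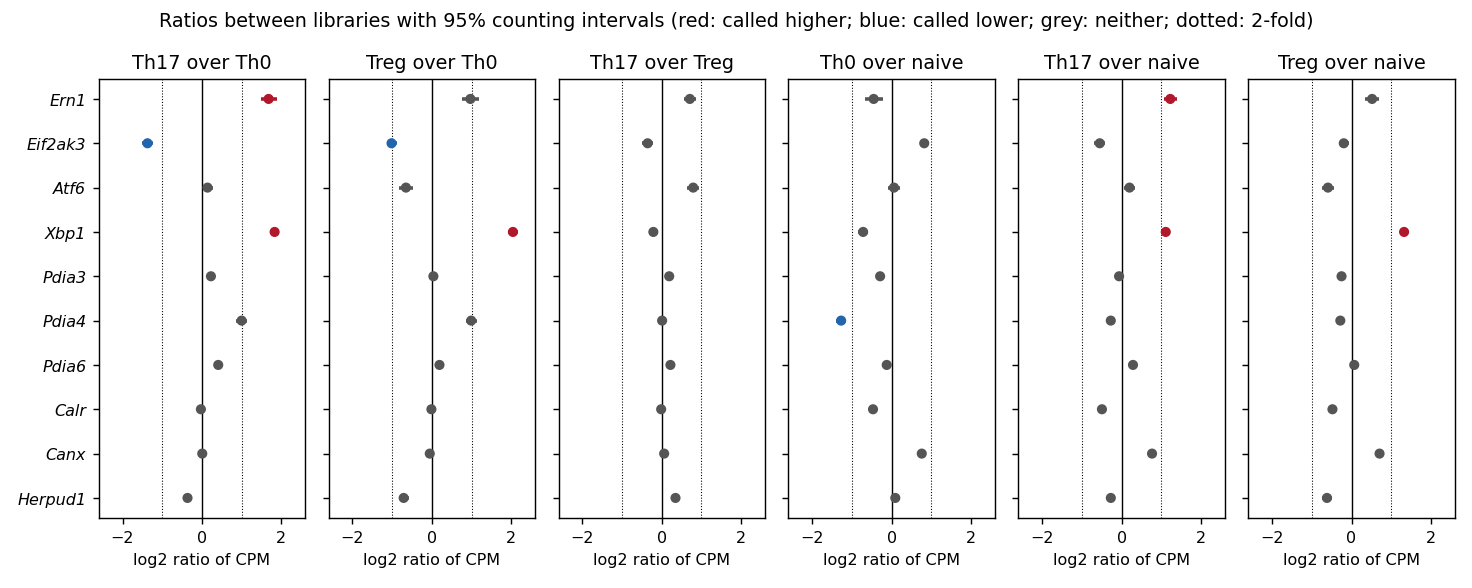
log2 ratio of CPM of each of the 10 genes in 6 comparisons, with 95% counting intervals. Red marks genes called higher, blue genes called lower and grey genes called neither, and dotted lines mark 2-fold. Xbp1 is called in 4 comparisons, Ern1 and Eif2ak3 in 2 each and Pdia4 in 1.

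The rest of the pathway was read from 6 lists with 101 genes besides the 10. In Th17 over Th0, 13 of 99 tested were higher (13.1%) and 9 lower (9.09%), beside 20.1% and 12.4% of all genes. In Treg over Th0, 11 of 98 were higher (11.2%) and 12 lower (12.2%), beside 20.2% and 12.0%. In Th17 over Treg, 2 of 99 were higher (2.02%) and 0 lower, beside 1.91% and 1.24%. The share of higher calls was thus below that of all genes in both comparisons with Th0 and near it between Th17 and Treg. In Th0 over naive, 14 of 98 were higher (14.3%) and 13 lower (13.3%), beside 18.5% and 27.2% of all genes. In Th17 over naive, 15 of 99 were higher (15.2%) and 8 lower (8.08%), beside 15.5% and 17.7%. In Treg over naive, 13 of 98 were higher (13.3%) and 7 lower (7.14%), beside 14.9% and 16.9%. The share of lower calls was below that of all genes in each comparison with naive. Marker genes of other cell types are part of those all-gene shares. The macrophage and monocyte markers, 4552 CPM together in the naive library, reached no more than 49.4 CPM in any culture. How far such genes raised the all-gene shares of lower calls was not tested.

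Among the 25 other chaperones and oxidoreductases, 3 were higher and 2 lower in Th17 over Th0, beside 20.1% and 12.4% of all genes. The list median was a log2 ratio of 0.15 beside 0.09 for all genes. With library totals 4 were higher and 0 lower, with a median of 0.45 beside 0.36 for all genes. Ero1l, the oxidase that recharges disulfide isomerases, had 679 CPM in Th17, 148 in Treg, 81.7 in Th0 and 41.6 in naive. It was 8.31-fold higher in Th17 than in Th0 (7.70 to 8.98) and 4.58-fold higher in Th17 than in Treg (4.35 to 4.84). Ero1l was the only gene of the 25 called between Th17 and Treg, beside 1.91% of all genes higher and 1.24% lower. Sdf2l1, part of an ER chaperone complex, had 23.9 CPM in Th17, 23.7 in Treg, 5.38 in Th0 and 34.5 in naive, and Dnajc10, an ER reductase, had 141, 138, 47.0 and 67.0 CPM in the same order. Both were called higher in Th17 than in Th0 under all 4 scalings, at 4.43-fold (3.25 to 6.16) and 2.99-fold (2.69 to 3.34).

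In Th0 over naive, 2 genes of that list were higher and 4 lower, beside 18.5% and 27.2% of all genes, with a median of -0.37 beside -0.13. With library totals 1 was higher and 7 were lower. Prdx4, an ER peroxiredoxin, was 4.50-fold higher in Th0 (3.71 to 5.50), with 437 counts in Th0 and 136 in naive. Dnajb9, a cochaperone of the main ER chaperone, was 6.30-fold lower in Th0 (5.23 to 7.63), at 14.4 CPM in Th0 and 90.8 in naive, and Sdf2l1 was 6.41-fold lower (4.73 to 8.85). Hspa5, that main chaperone (BiP), had 216 CPM in Th17, 283 in Treg, 182 in Th0 and 665 in naive, and was named after its values were seen. The sum of the 7 plasma cell markers, 2449 CPM in naive, was also highest in naive, though Mzb1 and Sdc1 were not. Ighm alone made up 2132 CPM of that sum. The macrophage and monocyte sum (4552 CPM) and the B cell sum (935 CPM) were highest in naive too. The part of plasma cells or of the other cell types in these values was not tested.

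The 20 other ERAD genes had 1 higher and 2 lower in Th17 over Th0, beside 20.1% and 12.4% of all genes, with a median of -0.35 beside 0.09. With library totals 3 were higher and 0 lower, with a median of -0.04 beside 0.36 for all genes. Edem2, which takes part in trimming glycans of misfolded proteins, had 78.2 CPM in Th17, 87.8 in Treg, 22.6 in Th0 and 56.3 in naive. It was 3.47-fold higher in Th17 than in Th0 (2.97 to 4.06) and 2.50-fold lower in Th0 than in naive (2.13 to 2.94), both under all 4 scalings. Ube2g2, a ubiquitin-conjugating enzyme, and Ubxn4, which recruits the ATPase p97, were 2.26-fold (1.90 to 2.69) and 2.11-fold (1.99 to 2.24) lower in Th17 than in Th0, each called under 2 of 4 scalings. In Th0 over naive, 1 gene was higher and 4 were lower, beside 18.5% and 27.2% of all genes. Among the lower genes were the ligase gene Syvn1, 2.70-fold lower (2.39 to 3.05), and the lectin gene Os9, 2.59-fold lower (2.39 to 2.82).

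Among 12 genes around PERK and eIF2alpha, 4 were higher and 2 lower in Th17 over Th0, beside 20.1% and 12.4% of all genes, and the median of 0.08 was close to the 0.09 of all genes. Chac1, a glutathione-degrading enzyme and target of ATF4, had 257, 111, 13 and 22 counts in Th17, Treg, Th0 and naive and was 13.2-fold higher in Th17 than in Th0 (7.56 to 25.1). Trib3, an inhibitory pseudokinase, had 76.0 CPM in Th17, 30.9 in Treg, 18.4 in Th0 and 2.94 in naive. It was 4.12-fold higher in Th17 than in Th0 (3.49 to 4.90), 2.46-fold higher in Th17 than in Treg (2.17 to 2.79) and 6.27-fold higher in Th0 than in naive (4.35 to 9.27).

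Other genes of this list ran differently. Ddit3, which encodes CHOP, had 87.8 CPM in Th17, 59.0 in Treg, 205 in Th0 and 22.7 in naive, and was 9.04-fold higher in Th0 than in naive (7.96 to 10.3). Th0 was the highest library for Ddit3, as for Eif2ak3. It was also the highest for Atf4, at 827 CPM beside 565 in Th17, 353 in Treg and 231 in naive. Atf4 was not called in Th17 over Th0. In Treg it was 2.35-fold lower than in Th0 (2.26 to 2.44), under 3 of 4 scalings. Atf4 was named after its values were seen. Eif2ak2, the eIF2alpha kinase activated by double-stranded RNA, had 33.2 CPM in Th17, 40.9 in Treg, 7.21 in Th0 and 72.8 in naive. It was 4.61-fold higher in Th17 than in Th0 (3.53 to 6.10) and 10.1-fold lower in Th0 than in naive (7.82 to 13.3).

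Of 14 regulators of the IRE1 and ATF6 branches, 12 were tested in Th17 over Th0, and 3 were higher and 0 lower, beside 20.1% and 12.4% of all genes, with a median of 0.39 beside 0.09. Creb3l2, a transcription factor related to ATF6, had 146 CPM in Th17, 130.3 in Treg, 44.6 in Th0 and 31.4 in naive, and was 3.27-fold higher in Th17 than in Th0 (2.93 to 3.66). Mbtps2, the protease that cuts ATF6 within the membrane, had 33.8 CPM in Th17, 28.4 in Treg, 14.1 in Th0 and 20.4 in naive, and was 2.40-fold higher in Th17 than in Th0 (1.96 to 2.95). No gene of this list was called between Th17 and Treg, where 12 were tested, beside 1.91% of all genes higher and 1.24% lower.

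Of the 14 genes of N-glycan processing, 2 were higher and 0 lower in Th17 over Th0, beside 20.1% and 12.4% of all genes, with a median of 0.30 beside 0.09. Mogs, the glucosidase that makes the first cut on the glycan, had 83.4 CPM in Th17, 70.7 in Treg, 20.1 in Th0 and 88.1 in naive. It was 4.14-fold higher in Th17 than in Th0 (3.53 to 4.88) and 4.37-fold lower in Th0 than in naive (3.73 to 5.16), a profile low in Th0 as for Pdia4. Dad1, an oligosaccharyltransferase subunit, was 2.08-fold higher in Th17 than in Th0 (1.86 to 2.32) under 3 of 4 scalings. In Th0 over naive 2 genes were higher and 2 lower, beside 18.5% and 27.2% of all genes. The higher ones, the transferase gene Stt3a and the cargo receptor gene Lman1, both 2.15-fold, were called under 2 of 4 scalings.

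The 16 translocon and signal peptidase genes, which move new proteins into the ER and cut off their signal peptides, had 0 higher and 3 lower in Th17 over Th0, beside 20.1% and 12.4% of all genes, with a median of -0.52 beside 0.09. With library totals 0 were higher and 0 lower, with a median of -0.21 beside 0.36 for all genes. Spcs3, a signal peptidase subunit, had 226 CPM in Th17, 260.1 in Treg, 511 in Th0 and 117 in naive, and was 2.26-fold lower in Th17 than in Th0 (2.16 to 2.37) under 3 of 4 scalings. Sec61b and Sec62, of the translocation channel, were 2.06-fold (1.84 to 2.30) and 2.04-fold (1.90 to 2.18) lower, under 2 of 4. In Th0 over naive 6 genes were higher and 0 lower, beside 18.5% and 27.2% of all genes, with a median of 0.74 beside -0.13. With library totals 3 were higher and 0 lower, with a median of 0.47 beside -0.38 for all genes. Among the higher genes were Spcs3 at 4.36-fold (4.11 to 4.63), the translocon subunit gene Ssr3 at 3.92-fold (3.72 to 4.12) and the channel gene Sec61g at 3.56-fold (2.98 to 4.27).

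**Figure D5:**
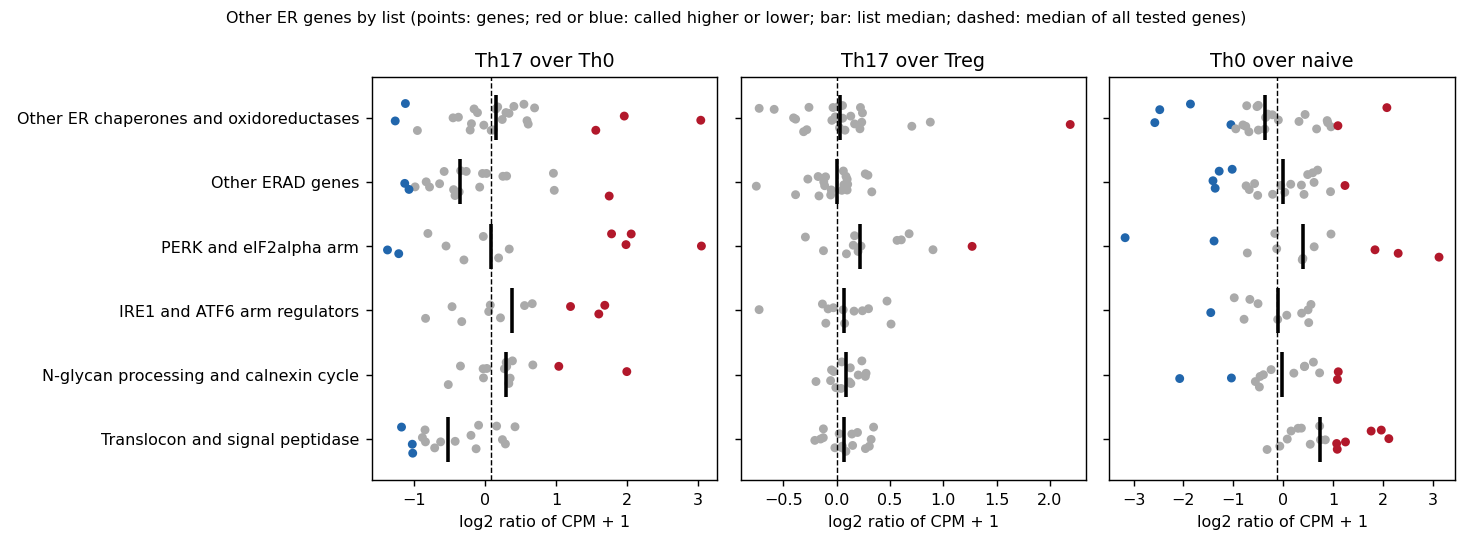
log2 ratio of CPM + 1 of the other ER genes, by list, in Th17 over Th0, Th17 over Treg and Th0 over naive. Each point is a gene, red or blue where called higher or lower, bars mark list medians and dashed lines the median of all tested genes. The translocon median is -0.52 in Th17 over Th0 and 0.74 in Th0 over naive, and most points in Th17 over Treg lie near 0.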

How the data were processed

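RNA sequencing of 4 mouse CD4+ T cell libraries was analysed from 1 gene table. Per the labels' protocols, RNA was extracted with TRIzol and sequenced by Illumina HiSeq. Bowtie2, RSEM, GRCm38.p6 and mm10 are named in the submitters' processing notes. The strandedness, read length and annotation were not given in the sources used here. The deposited counts are whole numbers of reads per gene with no normalization, and the table also holds the authors' FPKM, per the file headers. The deposited FPKM equalled the count over gene length and table total, and gene lengths were equal across libraries (tolerance 0.1%) for all 8988 genes that had 50 or more counts in every library.

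Groups came from the labels. Counts were scaled with TMM factors (edgeR 4.0.16, R 4.3.3; Th17 1.06, Treg 1.08, Th0 0.850, naive 1.03) from the 14779 genes with at least 10 counts in 1 library. That gene set was chosen after the 10 genes' calls had been seen under it and under factors from all genes. The 6 comparisons each took the genes with 10 or more counts in 1 of the 2 libraries, on CPM with a pseudocount of 1. Folds in the text are ratios of CPM without the pseudocount, with 95% exact conditional (Clopper-Pearson) intervals, and intervals of levels are exact Poisson intervals. Reads carry no molecular identifiers, so both cover counting error only. One count was worth between 0.0762 and 0.114 CPM.

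The 10 genes, the lists and the rules were chosen with earlier results of these data known. All 10 genes are given, with up to 3 called genes per list and comparison (Th17 over Th0, Th0 over naive, Th17 over Treg) having the largest log2 ratios and at least 10 CPM in 1 library, and the 3 nearest genes of Xbp1, Pdia4 and Herpud1 among genes averaging at least 10 CPM. Of the gene identifiers, 34267 (98.6%) were in GENCODE vM21. No transcript of another gene matched one of the 10 over at least 300 bases at 95% identity (minimap2 2.31). The rule for calls was run on simulated Poisson counts with planted changes of 3-fold and 6-fold. Variation between replicates was not simulated, so that run cannot show how reliable the calls are. Alternatives were library totals, upper quartile scaling, DESeq2 1.42.0 size factors, TMM from all genes or from the cultured libraries alone, a pseudocount of 0.25, no count filter, the authors' FPKM, and counts thinned to 1 depth. Computation used scipy 1.17.1, pandas 2.3.3 and numpy 2.4.6 in Python 3.11.15, and figures used matplotlib 3.10.9.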

Additional observations from a re-analysis of the deposited data

How the results depend on the processing

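No paired analysis was possible because each group has 1 library. Leaving out a replicate was not possible for the same reason, so these values describe 4 libraries. The total of higher and lower calls among the 10 genes stayed within 1.5 times under every alternative run, but their split did not. In Treg over Th0 it was 1 higher and 1 lower as reported, and 3 higher and 0 lower with library totals, with upper quartile scaling and with the authors' FPKM. In Th17 over Th0 it was 2 higher and 1 lower as reported, 3 higher and 1 lower with library totals, upper quartile scaling and TMM from all genes, and 3 higher and 0 lower with FPKM. The count over all genes did not in 4 cases. With the authors' FPKM it was 2866 in Th17 over Th0, 2760 in Treg over Th0 and 200 in Th17 over Treg, against 4332, 4228 and 420, and with a pseudocount of 0.25 CPM it was 756 in Th17 over Treg. In the FPKM setting the constant of 1 was added to FPKM and not to CPM. How much of these differences came from the added constant was not tested. The 10 genes had at least 247 counts in every library, and their spread between replicates is unknown. Upper quartile scaling moved the median log2 ratio of all genes by 0.13 in Th17 over Th0, 0.14 in Treg over Th0 and -0.12 in Th0 over naive. No called ratio of the 10 genes changed sign. The uncalled ratios that changed sign among the 4 scalings were those of Atf6 and Herpud1 in Th0 over naive, Pdia3 in Treg over Th0, Pdia4 in Th17 over Treg, and Calr and Canx in Th17 and Treg over Th0. TMM from all genes or from the cultured libraries alone were added after the data had been seen.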
